A study of Danio rerio with 12 samples.

Results

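Ribosome biogenesis factors and DEAD-box and DEAH-box helicases were followed in zebrafish trunk neural crest before and during migration. The members are 103 of 25878 gene identifiers in the deposited table, chosen by name. Their names start with ddx, dhx, utp, nop, nol or rrp and a number, or are those of a fixed set of further genes. That set holds nucleolar and RNA polymerase I genes, such as fbl, ncl, npm1 and dkc1, and the coactivator gene pprc1. The members carry 100 distinct symbols, since DDX19A, DDX39A and DHX32 each name a pair of identifiers, and counting could divide reads between such copies. Names follow the gene name table used, in which many zebrafish genes carry a human-style symbol in capitals. The rule uses names alone, but it was chosen with earlier results of these data known.

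Ribosomes are assembled in the nucleolus from ribosomal RNA, which RNA polymerase I transcribes as a long precursor, and from ribosomal proteins. Many assembly factors modify, cut and fold this precursor, among them small nucleolar ribonucleoproteins, the small-subunit processome and the large-subunit assembly factors. DEAD-box and DEAH-box proteins are RNA helicases that use ATP to remodel RNA, some of them in ribosome assembly and others in splicing, export, translation or decay of mRNA. The neural crest is an embryonic lineage that emigrates from the top of the neural tube, and in the trunk it forms pigment cells, peripheral neurons and glia. Roles below are mostly those known from yeast and human cells.

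Each library held RNA of 20 sorted cells from embryos carrying sox10:H2B-Dendra2 (Tg), in which the sox10 promoter drives a photoconvertible histone fusion, and every library has the treatment label control. Premigratory crest was sampled at 16 hours post-fertilisation (4 libraries) and migratory crest at 24 hours beside somites 10 to 15 (8 libraries). Nuclei were converted by light and cells sorted. For each population 8 embryos were converted, so libraries may share embryos. Every p-value therefore speaks of the spread among these 12 libraries. The labels do not say which migratory libraries hold leader or follower cells. The groups also differ in age, so migration and age cannot be told apart.

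SOX10 was present in all 12 libraries, at normalised values of 1225 to 22646, and the summed neural crest markers spanned 9897 to 42304 in premigratory libraries and 7188 to 73397 in migratory ones. Other crest markers were uneven before migration, with crestin at 5.97, TFAP2A at 3.30 and ETS1 at 1.94 in premigratory 1, and FOXD3 at 5.80 and 1.99 in premigratory 2 and 3. Some libraries stood apart by markers of other cells. Epidermal keratins and related markers summed to 1861550 in premigratory 1, and blood markers to 2421030 in migratory 5, where crest markers were lowest. Summed epidermal markers reached 358551 in the other premigratory libraries and spanned 2032 to 956731 in migratory ones, with 1 of 13 tested markers higher and 0 lower. Muscle markers summed to 977 to 4169 in premigratory libraries and 1225 to 916576 in migratory ones, with 6 of 15 tested markers higher and 0 lower. Neural tube markers summed to 56.2 to 7734 and 2216 to 28236, with 1 of 6 higher and 0 lower. Blood markers outside migratory 5 summed to at most 24304, with 0 of 3 called either way. The crest list had 2 of 11 higher and 0 lower. Of all genes in the test described below, 12.4% were higher and 0.132% lower. Of the markers called higher, all but actc1b and FOXD3 were under 10 in every premigratory library. These entered the test only through their migratory values. Single markers of a list were uneven in premigratory libraries. TNNT3, ckma, atp2a1, gata1a and klf17 were at 0 to 3.94 there, while alas2 was at 7487 and TNNC2 at 1360 in premigratory 1, ACTA1 reached 3739 and MYOG 548. The part of these cells in the results below was not tested. With premigratory 1 and migratory 5 both left out, the 6 called members had adjusted p-values of 0.0160 to 0.0498, while pprc1 and ncl were not called without premigratory 1 alone (adjusted p = 0.0604 for each), and libraries rich in muscle or epidermal markers, such as migratory 1 and 8, stayed in.

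The members took a larger share of the premigratory libraries. Their normalised values, which are the authors' counts after a normalisation not given in the sources used here, summed to 1.13%, 2.52%, 2.45% and 2.15% of the library total in premigratory 1 to 4. In migratory libraries the share ran from 0.430% through a median of 0.709% to 1.25%. All premigratory libraries but the first lay above all migratory ones, and premigratory 1 lay just below migratory 6. The means were 2.06% ± 0.641 (SD, n = 4) and 0.747% ± 0.260 (SD, n = 8). Without the 6 members of highest mean value they were 1.22% ± 0.366 and 0.472% ± 0.174, again with overlap through premigratory 1. With the epidermal, muscle and blood marker genes taken out of the total they were 2.11% ± 0.595 and 0.774% ± 0.267. A share in pooled cells can fall through fewer cells of a type, through less member RNA per cell or through more RNA of other genes. These cannot be told apart here. No test was made of these sums.

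Detection went the other way. A value of 10 or more was reached by 49, 80, 53 and 75 of the 103 members in premigratory 1 to 4, and by 65 to 92 members in migratory libraries, with a median of 81.5. As a share of members this was 62.4% ± 15.1 (SD, n = 4) and 78.3% ± 9.15 (SD, n = 8), with overlapping groups. Over all gene identifiers it was 21.2% ± 5.98 and 40.8% ± 4.09, and there the groups did not overlap, with 3650 to 6879 identifiers in premigratory libraries and 9007 to 11896 in migratory ones. Members were therefore detected more often than genes at large in every library, and premigratory libraries detected fewer genes of all kinds. Among detected members the median value was 1369 to 4376 in premigratory libraries and 529 to 1559 in migratory ones, against 493 to 2525 and 271 to 658 for all detected genes. The ratio of these medians was 1.62 to 2.77 in premigratory libraries and 1.02 to 4.15 in migratory ones, so by this measure the groups overlapped.

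**Figure D1:**
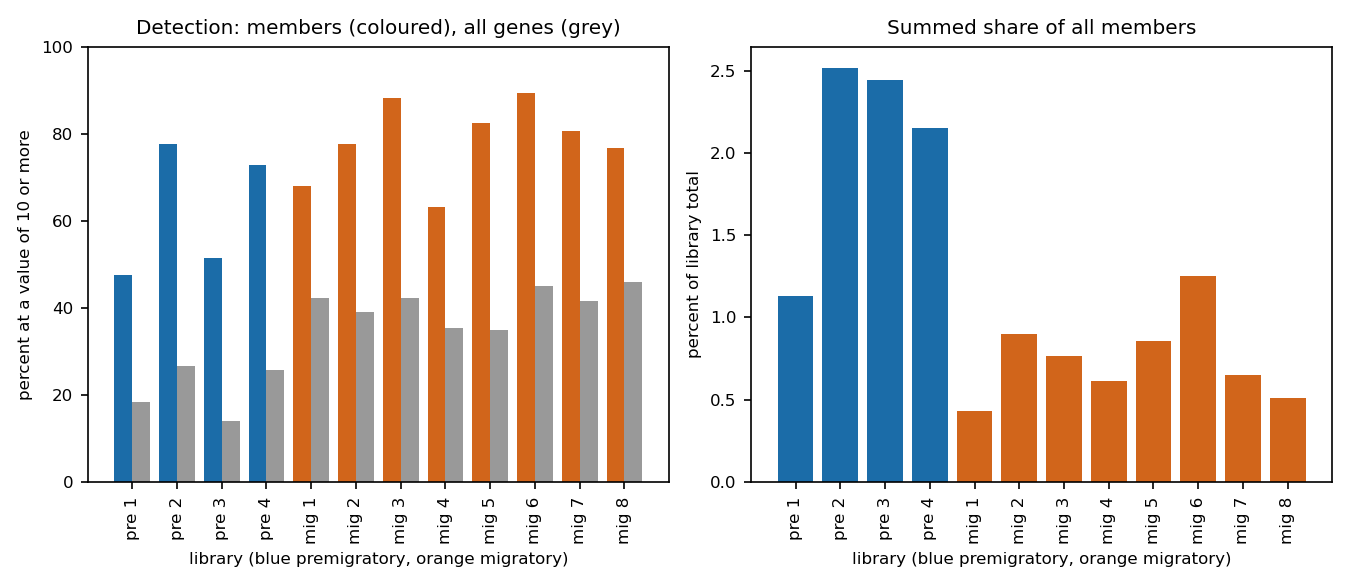
Left, percent of the 103 members (blue premigratory, orange migratory) and of all 25878 identifiers (grey) at a value of 10 or more in each library. Right, percent of each library's total taken by the members, with 2.15% or more in premigratory 2 to 4 and at most 1.25% in migratory libraries.

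The test across genes compared log2(value + 1) between the 8 migratory and 4 premigratory libraries with limma, over the 12122 genes that reached 10 in 4 libraries or more. Of the 103 members 94 entered this test. A call means an adjusted p under 0.05 after Benjamini-Hochberg adjustment over all 12122 genes. On this scale the added 1 shrinks changes between low values. Libraries near 0 weigh heavily, so a fold change can also be larger than that of the means or opposite in sign. Only 28 of the 94 reached 10 in all 4 premigratory libraries, against 45 in all 8 migratory ones. DDX55, DDX59 and NOL4L were under 10 in every premigratory library, so they entered the test only through their migratory values. A gene can enter on migratory values alone, but on premigratory values alone only if all 4 libraries reach 10. The filter thus favours genes higher in migratory libraries, and it shapes the shares and medians given below for all tested genes. On average 41.7% of tested genes reached 10 in a premigratory library and 76.4% in a migratory one, against 67.6% and 84.2% of tested members.

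DDX51, FBL, pprc1 and ncl were lower in migratory libraries, and DDX6 and DDX1 were higher. Thus 4 of 94 tested members were called lower (4.26%), where 0.132% of all tested genes were (16 genes). Another 2 were called higher (2.13%), where 12.4% of all tested genes were (1508 genes). Of the 16 genes called lower in the whole table, 4 are members. The members were chosen with earlier results of these data known, so such shares only describe them and were not tested. At an unadjusted p under 0.05 the members had 10 lower (10.6%, against 0.66% of all genes) and 8 higher (8.51%, against 31.8%). Quantile normalisation changed the split over all genes to 223 higher and 34 lower and that of the members to 0 higher and 2 lower. With the library number as a replicate block, which pairs libraries 1 to 4 across groups, 0 members and 0 genes were called in either direction, while at an unadjusted p under 0.05 10 members were lower (10.6%, against 0.668% of all genes) and 5 higher (5.32%, against 18.5%). With the number as a random term instead, a setting chosen after seeing the data, 4 members were called lower and 2 higher. Over all genes it gave 17 lower and 1543 higher. Without migratory 2, 3, 7 or 8 or premigratory 2 or 3, the member calls lower dropped to 1 or 2 and those of all genes to 6 to 10. Without migratory 4, premigratory 2 or premigratory 4, the member calls higher rose to 4. The calls higher over all genes dropped to 771 without premigratory 3.

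Members had smaller log2 fold changes than genes at large. The median log2 fold change, migratory minus premigratory, was 0.53 over the 94 members and 2.67 over all tested genes, and 43.6% of members against 14.5% of all genes were negative. The member median turned negative with quantile normalisation (-0.72, all genes 0.61), with the replicate block (-0.14), without premigratory 3 (-0.29) and without premigratory 1 and migratory 5 (-0.19). It was 0.06 without premigratory 1, 0.81 without premigratory 4 and 0.10 to 0.25 without migratory 2, 5 or 6. With every library scaled to the same total it was 0.25, against 2.35 over all genes. The member median lay below that of all genes in each of 23 alternative settings, by 0.31 to 2.81. The smallest gap came with no filter on low values, where the medians were 0.63 over members and 0.94 over all genes. The medians were 0.63 and 2.18 with a filter of 10 or more in at least 2 libraries, and 0.38 and 2.77 with a mean of 100 or more. The size of the gap thus varied with the genes tested, and the reason was not tested. The mean of the values and the mean of the logs often differed in sign. On the linear scale the premigratory mean was the higher for 72 of the 94 tested members (76.6%), against 34.0% of all tested genes. Many members were high in some premigratory libraries and near 0 in others. The migratory library was the lower in all 4 numbered pairs for 18 members (19.1%), against 1.93% of all tested genes.

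**Figure D2:**
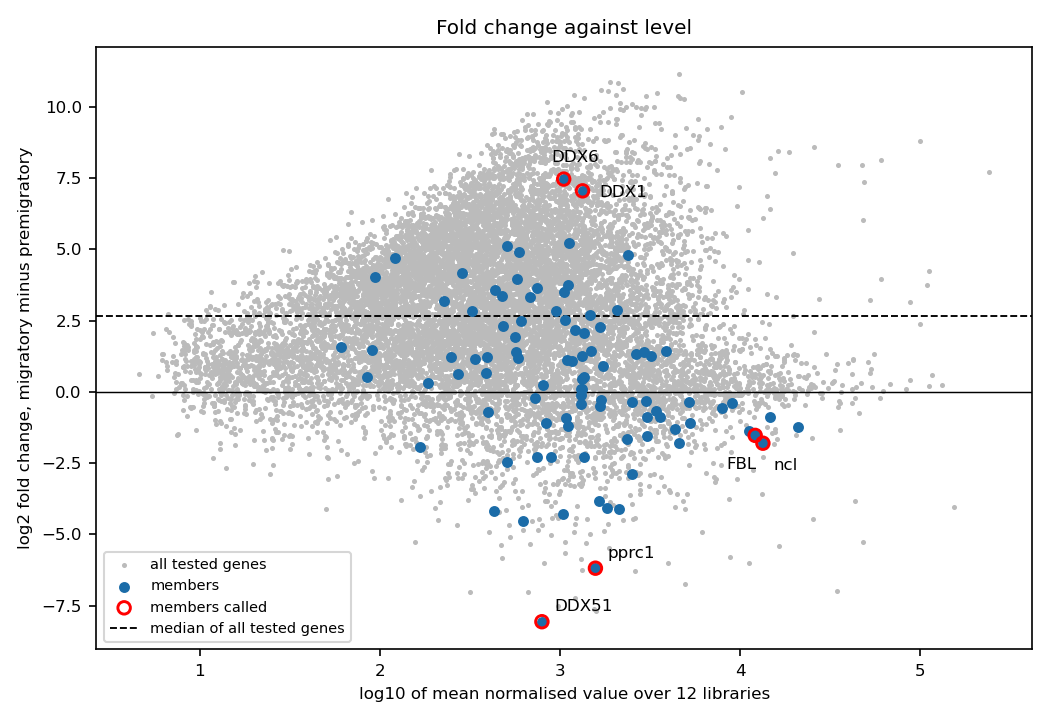
Log2 fold change (migratory minus premigratory, on log2(value + 1)) against the log10 of the mean normalised value over 12 libraries, for all 12122 tested genes (grey) and the 94 tested members (blue, called ones ringed in red and named). The dashed line is the median of all tested genes, 2.67, which is 0.61 with quantile normalisation.

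Members with high values had negative fold changes more evenly. Whether the values are scaled by gene length is not given in the sources used here. All 9 members with a mean value of 5000 or more had a negative log2 fold change, with a median of -1.08. They are FBL, NOP56, NOP58, ncl, npm1a, DDX5, DHX15 and both DDX39A identifiers. Of all 682 genes with such a mean 29.0% were negative, with a median of 0.54. Scaled to the same total, 309 of these 682 genes were negative. The count of members was 9 of 9 under both other scalings and 8 of 9 without premigratory 2 or premigratory 3. Of the 56 members with a mean of 1000 or more 31 were negative, with a median of -0.34, against 21.4% and a median of 2.09 for the 3628 genes of that range.

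**Figure D3:**
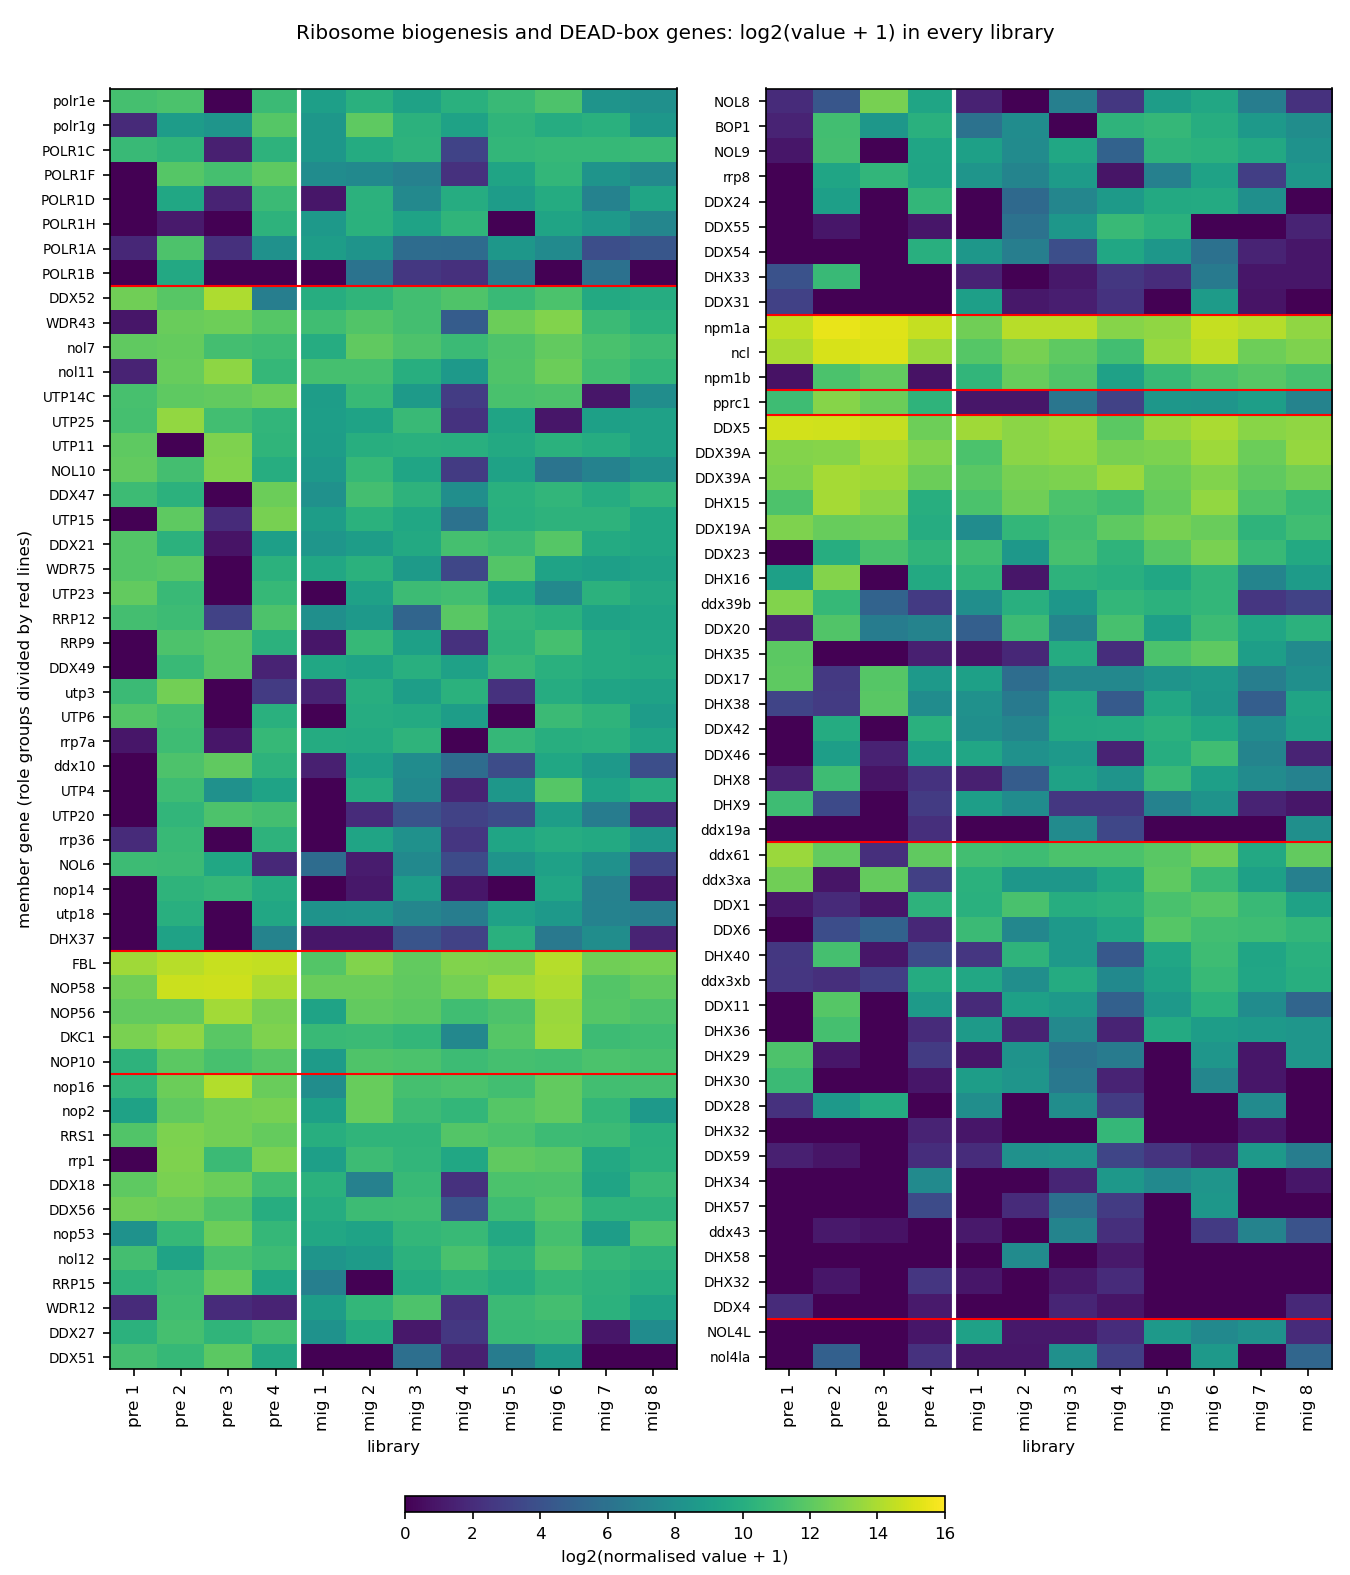
Log2(normalised value + 1) of all 103 members (vertical axis, ordered by role group and mean value, groups divided by red lines) in the 4 premigratory (pre) and 8 migratory (mig) libraries (horizontal axis, divided by the white line). Dark cells, near 0, were scattered over most genes of lower mean, and the box C/D proteins, ncl, npm1a and DDX5 had no dark cell.

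None of the 8 RNA polymerase I genes was called, where 12.4% of all tested genes were called higher and 0.132% lower. Their median log2 fold change was 1.17, which was -0.33 with quantile normalisation and without premigratory 3. It was 0.43, 2.54 and 1.93 without premigratory 1, 2 and 4. Subunit gene polr1e was at 2455, 2783, 0 and 1906 in premigratory 1 to 4 and at 262 to 2962 in migratory libraries, with a median of 861. Premigratory 1, 2 and 4 lay inside the migratory range, and premigratory 3 was listed at 0 (log2 fold change 1.26, SE 1.83, limma adjusted p = 0.661). The subunit gene polr1g was at 2.77, 454, 321 and 3504, against 346 to 4106 with a median of 1059, and these ranges also overlapped (log2 fold change 2.17, SE 1.56, limma adjusted p = 0.343). POLR1H, which encodes a small subunit that acts in transcript cleavage, was under 2 in 3 premigratory libraries and at 1296 in the other (log2 fold change 5.12, limma adjusted p = 0.133). POLR1F had the reverse look, at 0 in premigratory 1 and 2448 to 4216 in the other 3 premigratory libraries, against at most 1555 in migratory ones (log2 fold change -1.21, limma adjusted p = 0.722).

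The small-subunit processome is the large particle that assembles on the start of the ribosomal RNA precursor and makes the first cuts. None of its 27 tested members was called, where 12.4% of all tested genes were called higher and 0.132% lower. Of the 27, 12 had a negative log2 fold change (44.4%, against 14.5% of all tested genes) and 3 were lower at an unadjusted p under 0.05 (11.1%, against 0.66%). The median was 0.23, which turned to -1.01 with quantile normalisation, to -0.20 with the same total per library, to -0.61 with the replicate block and to -1.04 without premigratory 3. Without another single library it ran from -0.17, without premigratory 1, to 0.90, without premigratory 2. For 24 of the 27 the premigratory mean was the higher on the linear scale.

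NOL10, a processome protein, was at 4619, 2382, 8087 and 1002 in premigratory 1 to 4. In migratory libraries it ran from 6.01 through a median of 336 to 1650. All but migratory 2 lay below all premigratory libraries (log2 fold change -3.82, SE 1.46, limma adjusted p = 0.0902). UTP14C, which belongs to the UTP14 family that activates a DEAH-box helicase in yeast, was at 2578, 4151, 4482 and 5742, against 0.991 to 2953 with a median of 457. Only migratory 5 and 6 reached into the premigratory range (log2 fold change -4.12, SE 1.86, limma adjusted p = 0.140). UTP25, a processome protein described in yeast and zebrafish, was at 2449, 10886, 2277 and 1468, against 0.987 to 1867 with a median of 560, and migratory 3 alone lay above the lowest premigratory library (log2 fold change -4.08, SE 1.84, limma adjusted p = 0.138). All 3 genes were lower in each of the 4 numbered pairs.

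The other processome members mixed high and near-zero premigratory values. WDR43, which helps link transcription and processing of the precursor, was at 0.937 in premigratory 1 and 3585 to 5559 in the other 3, against 23.7 to 7941 in migratory libraries (log2 fold change 1.25, limma adjusted p = 0.684). DDX52, a helicase of this particle, was at 5901, 3743, 16950 and 114, against 853 to 3107 (log2 fold change -0.69, limma adjusted p = 0.694). UTP20, a large scaffold protein of late assembly, was listed at 0 in premigratory 1 and at 1495 to 3013 in the other 3, against at most 475 in migratory libraries (log2 fold change -4.52, SE 2.21, limma adjusted p = 0.166). The nucleolar protein gene nol7 was among the steadiest, at 2137 to 4742 in premigratory libraries and 954 to 4579 in migratory ones (log2 fold change -0.32, SE 0.69, limma adjusted p = 0.769).

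Box C/D particles methylate and box H/ACA particles pseudouridylate ribosomal RNA. All 5 members that encode core proteins of these particles had a negative log2 fold change (against 14.5% of all tested genes), with a median of -1.37. The count was also 5 of 5 in both other scalings, with the replicate block and when any 1 library was left out. Other core proteins, such as SNU13, fall outside the naming rule and are among the partners below. Of 15 tested small nucleolar ribonucleoprotein and scaffold partners 5 were negative, with a median of 1.13. FBL (ENSDARG00000053912), the fibrillarin methyltransferase of box C/D particles, was at 13263, 20345, 25759 and 23198 in premigratory 1 to 4. In migratory libraries it ran from 3320 through a median of 6998 to 19352. Only migratory 6 lay inside the premigratory range, and the other 7 were at 8066 or less. FBL fell by 1.53 on the log2 scale (SE 0.46, limma adjusted p = 0.0389), or 2.62-fold by the means. The adjusted p was 0.172 with the replicate block and 0.0560 to 0.104 without premigratory 2, 3 or 4 or migratory 3, 7 or 8.

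NOP58, a core scaffold protein of the same particles, was at 5927, 26779, 27707 and 15927, against 3427 to 16426 with a median of 5160. Migratory 4, 5 and 6 lay above premigratory 1, and migratory 6 also lay above premigratory 4 (log2 fold change -1.37, SE 0.55, limma adjusted p = 0.1004). The adjusted p was 0.0375 without premigratory 1. Its partner NOP56 was at 4489 to 14061 in premigratory libraries and 624 to 12211 in migratory ones (log2 fold change -1.08, limma adjusted p = 0.304). On the H/ACA side, the pseudouridine synthase gene DKC1 was at 3847 to 10369 in premigratory libraries and 176 to 3583 in migratory ones but for migratory 6, at 12978 (log2 fold change -1.80, SE 0.91, limma adjusted p = 0.175). NOP10, its small partner, differed least, with 1309 to 4059 against 432 to 3082 (log2 fold change -0.37, SE 0.78, limma adjusted p = 0.763).

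Of 19 tested large-subunit assembly factors 1 was called lower (5.26%, against 0.132% of all tested genes) and 0 higher (against 12.4%). Of these factors 13 were negative (68.4%, against 14.5%). Their median was -0.72, and it was also negative in both other scalings. It was -1.71 without premigratory 1, -1.09 without migratory 6 and -0.40 without premigratory 3 or 4. DDX51 (ENSDARG00000025854), a DEAD-box helicase that acts in the maturation of large-subunit ribosomal RNA, was at 2390.2, 1708, 4081 and 789 in premigratory 1 to 4. In migratory libraries it was listed at 0 in 4 of 8, with a median of 0.831 and a highest value of 392. The groups did not overlap. DDX51 fell by 8.07 on the log2 scale (SE 1.93, limma adjusted p = 0.0149), or 32.2-fold by the means, which was 95.6-fold without migratory 6. It was still called when any 1 library was left out, and its adjusted p was 0.158 with the replicate block. The groups did not overlap, with migratory below premigratory, for 2 of the 94 members, DDX51 and pprc1 (2.13%, against 0.14% of all tested genes).

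RRS1, which helps bring 5S ribonucleoprotein into the large subunit in yeast, was at 3209, 7439.7, 6096 and 4699, against 1060.5 to 3307 with a median of 1663. Only migratory 4 lay above the lowest premigratory library (log2 fold change -1.55, SE 0.68, limma adjusted p = 0.132). The helicase genes DDX18 and DDX27 were also high in all premigratory libraries, at 2188 to 6931 and 1264 to 2450. In migratory libraries they ran from 3.94 to 2958 and from 0.994 to 1959, so both overlapped (log2 fold changes -2.89 and -4.28, limma adjusted p = 0.190 and 0.165). The assembly factor genes nop16 and nop2, the latter for an RNA cytosine methyltransferase, had log2 fold changes of -1.30 and -0.90 (limma adjusted p = 0.318 and 0.536). WDR12, a subunit of the complex it forms with BOP1 and the pescadillo protein, went the other way. It was under 3 in 3 premigratory libraries and at 2175 in premigratory 2, against 3.91 to 2968 with a median of 1422 (log2 fold change 5.23, SE 2.10, limma adjusted p = 0.103). Its partner BOP1 was at 2.01 to 2315 and 0 to 1588 (log2 fold change -0.21, limma adjusted p = 0.957).

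Nucleolin and nucleophosmin are abundant nucleolar proteins that bind ribosomal RNA and chaperone assembly. The nucleolin gene ncl (ENSDARG00000002710) was at 16102, 32886, 36575 and 12117 in premigratory 1 to 4. In migratory libraries it ran from 2316 through a median of 6228 to 21161. Only migratory 6 lay above the lowest premigratory library. It fell by 1.80 on the log2 scale (SE 0.56, limma adjusted p = 0.0447), or 3.10-fold by the means, and it was lower by 2.20 to 3.14 in each of the 4 numbered pairs. The adjusted p was 0.158 with the replicate block, where the unadjusted p was 0.000697. It was 0.0543 to 0.137 without premigratory 1, 2 or 3 or migratory 1, 2, 3, 7 or 8.

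The nucleophosmin gene npm1a was at 22276, 45957, 38464 and 25075, against 5823 to 24850.3 with a median of 14927. Migratory 6 again was the 1 library inside the premigratory range (log2 fold change -1.22, SE 0.40, limma adjusted p = 0.0534). The adjusted p was 0.0420 without migratory 6. Its paralog npm1b was at 0.738 and 0.729 in premigratory 1 and 4 and at 2873 and 4658 in the other pair, against 563 to 4902 (log2 fold change 4.81, SE 1.95, limma adjusted p = 0.106). The paralogs thus had log2 fold changes of opposite sign, and neither was called.

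The coactivator gene pprc1 (ENSDARG00000090337), a relative of PGC-1 that acts in the expression of mitochondrial and growth genes, was at 2115, 8595, 5406 and 1369 in premigratory 1 to 4. In migratory libraries it ran from 0.979 through a median of 110 to 501. Every migratory library lay below every premigratory one. It fell by 6.19 on the log2 scale (SE 1.85, limma adjusted p = 0.0389), or 24.9-fold by the means. The adjusted p was 0.164 with the replicate block and 0.0504 to 0.0959 without premigratory 1, 2, 3 or 4 or migratory 2, 3 or 8.

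**Figure D4:**
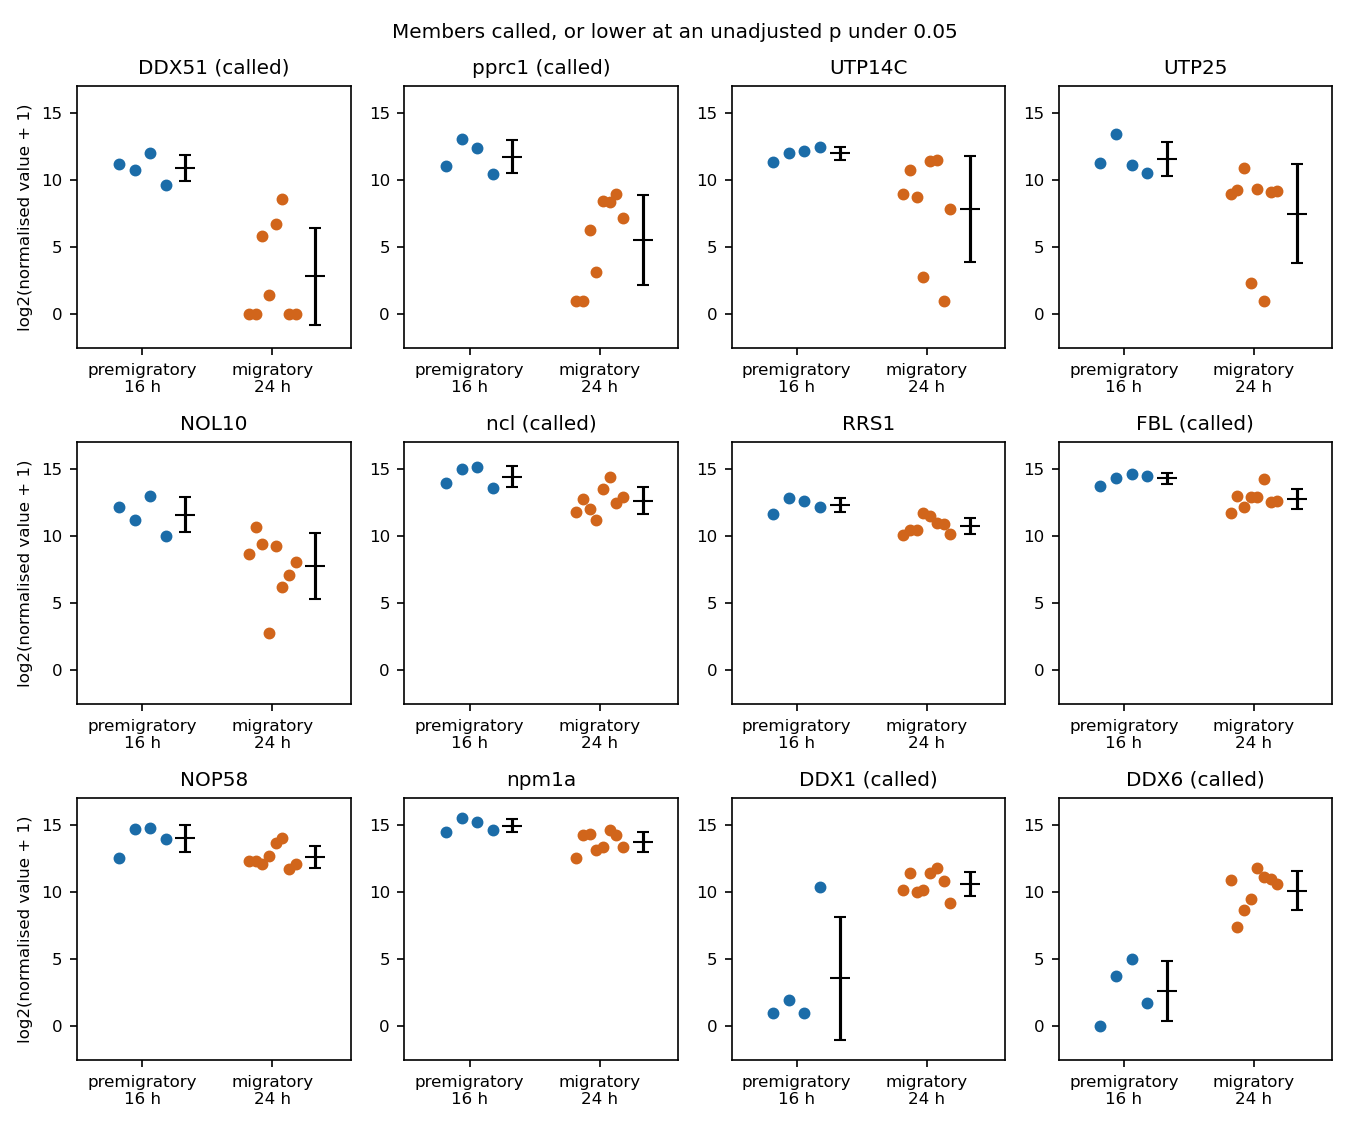
Log2(normalised value + 1) in each library for the 6 called members and the 6 further members that were lower at an unadjusted p under 0.05. Points are libraries in order of their number, and bars are the mean ± SD on the log2 scale. DDX51 and pprc1 had no overlap below, and DDX6 had none above the premigratory libraries.

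Helicases of splicing, transcription and mRNA export gave no call among 16 tested members, where 12.4% of all tested genes were called higher and 0.132% lower. Their median was 0.58, which was -0.62 with quantile normalisation and -0.03 without premigratory 3. It was 0.18, 0.36, 0.20 and 0.99 without migratory 1, 5, 6 and 7. DDX5, a helicase and coregulator of transcription and splicing, was at 30322, 29070, 24516 and 5671, against 4091 to 16203 with a median of 10954. Premigratory 1 to 3 lay above all migratory libraries, and premigratory 4 near their low end (log2 fold change -0.88, SE 0.48, limma adjusted p = 0.209). The identifiers named DDX39A, an mRNA export helicase, had the smallest SD over all 12 libraries (0.66 and 0.62, log2 scale) among members with a mean of 500 or more. ENSDARG00000006225 was at 8360 to 16328 in premigratory libraries and 2789 to 12710 in migratory ones, and ENSDARG00000015111 at 5456 to 14848 and 3856 to 12137. Their log2 fold changes were -0.40 (SE 0.48) and -0.56 (SE 0.47), with limma adjusted p of 0.585 and 0.424.

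Both calls higher came from the helicases with roles in translation, RNA decay and other processes, of which 13 were tested and 0 were called lower. The share called higher, 15.4%, was near the 12.4% of all tested genes. The median of the 13 was 2.26, against 2.67 over all tested genes. It was 0.34 with quantile normalisation, 3.73 without premigratory 1 and 3.97 without premigratory 2. DDX6 (ENSDARG00000061338), a helicase of translational repression and mRNA decay in P bodies, was at 0, 12.8, 31.6 and 2.43 in premigratory 1 to 4. In migratory libraries it ran from 167 through a median of 1737 to 3513, with no overlap. DDX6 rose by 7.47 on the log2 scale (SE 1.50, limma adjusted p = 0.00586), and by the means it was 11.7 ± 14.4 (SD, n = 4) and 1568 ± 1114 (SD, n = 8). It was still called when any 1 library was left out, but not with quantile normalisation (adjusted p = 0.135) or the replicate block (adjusted p = 0.225). The groups did not overlap, with migratory above premigratory, for 2 members, DDX6 and NOL4L (2.13%, against 4.83% of all tested genes), and for NOL4L the gap lay at values near 1.

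DDX1 (ENSDARG00000032117), which acts in tRNA ligation and RNA transport, was at 0.991, 2.82, 0.984 and 1307 in premigratory 1 to 4, against 591 to 3541 with a median of 1488. Premigratory 1 to 3 were near 0, and premigratory 4 lay inside the migratory range. DDX1 rose by 7.05 on the log2 scale (SE 1.70, limma adjusted p = 0.0154). By the means it rose only 5.61-fold, which was 1150-fold without premigratory 4. It too was called when any 1 library was left out, and not with quantile normalisation (adjusted p = 0.156) or the replicate block (adjusted p = 0.211). The DDX3 helicase genes, which act in translation initiation, had uneven premigratory values. The gene ddx3xb was at 3.51 to 6.88 in 3 libraries and 928 in premigratory 4, against 192 to 1721 (log2 fold change 4.92, SE 1.62, limma adjusted p = 0.0554). The gene ddx3xa was at 5929, 0.910, 4841 and 7.32, against 123 to 4109 (log2 fold change 2.26, limma adjusted p = 0.454). Apart from the DDX3 genes, ddx61 was at 3.37 in premigratory 3 and 4459 to 12463 in the other 3, against 823 to 5995 (log2 fold change 1.42, limma adjusted p = 0.553).

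By name, the 42 tested ddx and dhx genes had 2 calls higher (4.76%, against 12.4% of all tested genes) and 1 lower (2.38%, against 0.132%), with a median of 1.32. The 52 other members, all tested, had 0 higher and 3 lower (5.77%), with a median of -0.25. The names NOL4L and nol4la, which match by their letters, belong to a gene family with no known part in ribosome assembly. They were at 0 to 0.983 and 0 to 28.5 in premigratory and 1.01 to 580 and 0 to 392 in migratory libraries, and neither was called (limma adjusted p = 0.0930 and 0.577).

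The 9 members not tested were ddx19a, DDX4, DDX31, DHX33, DHX57, DHX58, ddx43 and both DHX32 identifiers. Each reached 10 in at most 3 libraries. The germ-cell helicase gene DDX4 was at 0 to 2.90 everywhere, and DHX58, an RNA sensor of antiviral defence, was at 0 before migration and at 207 in migratory 2. DHX33 was at 1869 in premigratory 2 and 0 to 90.6 elsewhere.

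**Figure D5:**
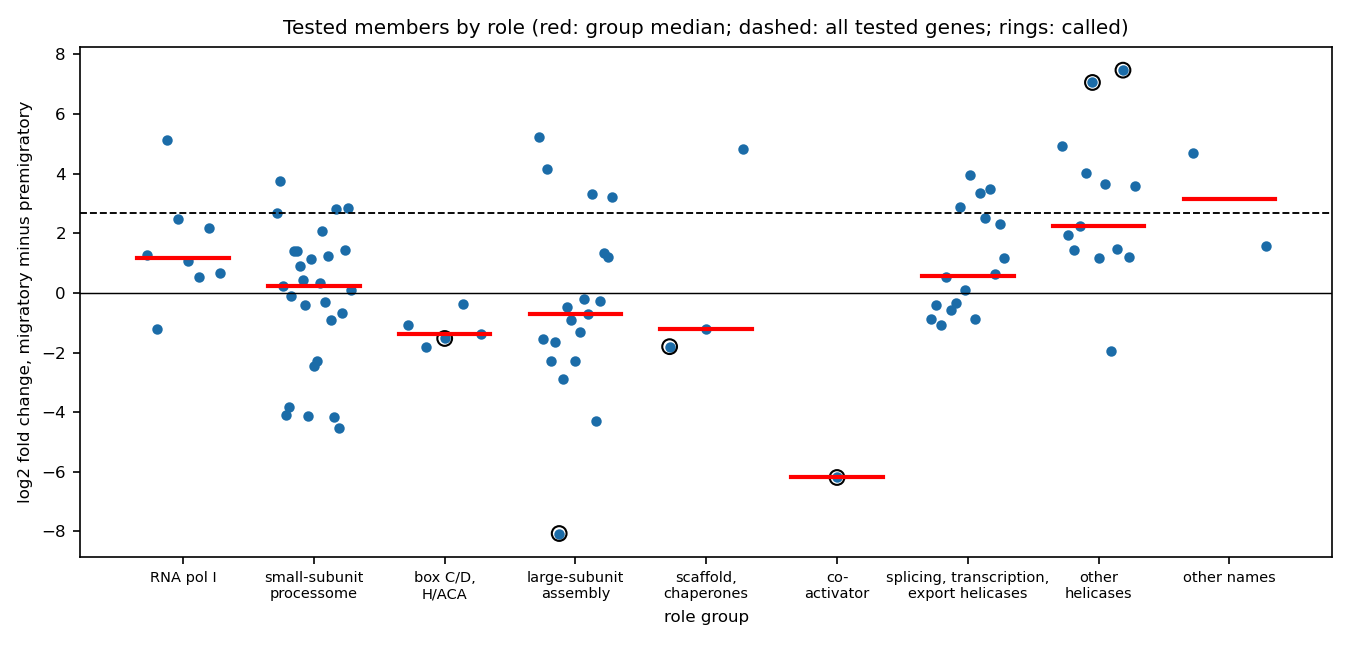
Log2 fold change of each of the 94 tested members by role group, with the group median (red) and the median of all tested genes (dashed, 2.67, and 0.61 with quantile normalisation). Ringed members were called, with 4 below and 2 above 0. All box C/D and H/ACA members were negative, and the medians of the processome, polymerase I and splicing groups turn negative with quantile normalisation.

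Members varied about as much between libraries of a group as other genes did. The median SD within groups on the log2 scale was 3.31 over the 94 members, from 0.58 for RRS1 to 4.97 for DHX35, and 3.17 over all tested genes. Migratory 6 was the highest of the 8 migratory libraries for 47 of the 94 members, and migratory 1 and 4 were the lowest for 35 and 22. Premigratory 1, the library with the highest epidermal markers, was the lowest of 4 or tied for lowest for 46 members, and premigratory 2 was the highest for 32. Ties at 0 were counted only for the tied library of the lowest number. This raises the counts of lowest for premigratory 1 and migratory 1, and lowers those of later libraries such as premigratory 3. Detection of genes at large moved with this in part, with 4773 identifiers at 10 or more in premigratory 1, 6879 in premigratory 2 and 11645 in migratory 6, though migratory 8 detected most, with 11896. Premigratory 3 detected fewest, with 3650, yet it was the highest of 4 for 27 members and was counted as lowest for 21. The part of detection in the member values was not tested.

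Other genes of the same pathway, 163 identifiers in 7 lists that hold no member, were counted in the same fit. Of 152 tested partners 6 were called higher (3.95%, against 12.4% of all tested genes) and 0 lower (against 0.132%), with a median of 0.90. Of 36 small-subunit partners 1 was higher and 0 lower, and of 45 large-subunit partners 1 was higher and 0 lower. Of 15 small nucleolar ribonucleoprotein and scaffold partners 1 was higher, of 11 polymerase I factors and shared subunits 1, of 17 polymerase III genes 2, of 15 RNA exosome genes 0, and of 13 translation helicase and cap-binding genes 0, with 0 lower in each. The calls higher were RIOK3 (a kinase of late small-subunit maturation), senp3a (a SUMO protease of the nucleolus), RUVBL2 (an ATPase in box C/D assembly), ubtf (the upstream binding factor of polymerase I), gtf3c2 and brf2. All of these but ubtf were under 10 in every premigratory library, so they entered the test only through their migratory values. At an unadjusted p under 0.05, 10 partners were lower (6.58%, against 0.66% of all tested genes) and 17 higher (11.2%, against 31.8%).

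The lower ones among these partners included SNU13, a box C/D core protein that binds the RNA. It was at 6488, 11799, 30621 and 16022 in premigratory 1 to 4 and 1084 to 10678 in migratory libraries, with a median of 5196 (log2 fold change -1.59, SE 0.60, limma adjusted p = 0.0873). The nucleophosmin relative npm3 was at 5871 to 16123 and 1489 to 8501 (log2 fold change -1.34, limma adjusted p = 0.111). GNL3, the nucleolar GTPase nucleostemin, was at 5676 to 25646 and 57.8 to 5944 (log2 fold change -2.51, limma adjusted p = 0.108). Each overlapped between groups and none was called. Migratory lay below premigratory without overlap for 2 partners (1.32%, against 0.14% of all tested genes), namely RPF1, a large-subunit factor (2394 to 4697 and 443 to 1991, limma adjusted p = 0.168), and EXOSC6, an exosome subunit (670 to 1065 and 0 to 664, limma adjusted p = 0.267). Migratory lay above without overlap for 2 others, RIOK3 and senp3a (1.32%, against 4.83%). Both were under 10 in every premigratory library.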

How the data were processed

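The deposited table holds 1 normalised signal per gene and library, which its file name calls normalised counts of the authors. How they normalised, which annotation they used and what they filtered is not given in the sources used here. The submitters' processing notes list fastp 1.0, Salmon and GRCz11 without saying what each was used for. SMART-Seq v4 kits amplified the cDNA and Nextera kits made the libraries, per the labels' protocols. Whole multiples of a step, within a tolerance of 0.01, made up 4.31% to 20.3% of the low values in a library, so reads were not recovered and no count model was run. Depth is known only as sums of deposited values, 10736000 to 24227300 per library, and amplified reads are not independent molecules. The number of columns left out was 0, and 23604 of 25878 identifiers had a symbol. No library copied another, since correlations between libraries reached at most 0.805.

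The comparison used lmFit and a trended eBayes from limma 3.58.1, under R 4.3.3, on log2(value + 1) of genes that reached 10 in 4 libraries or more, with Benjamini-Hochberg adjustment over 12122 genes. The members and lists were chosen with earlier results of these data known. Members described are those called, those lower at an unadjusted p under 0.05 or without overlap, the 2 highest of each role group and the 6 least variable with a mean of 500 or more. Others were chosen after their values were seen, namely POLR1F, POLR1H, UTP20, NOP56, DKC1, DDX18, DDX27, WDR12, BOP1, npm1b, ddx3xb, and the untested genes. Libraries of both groups carry numbers that the labels also call batch, and libraries 1 to 4 were treated as paired by it. The deviations of libraries from their group means correlated at 0.155, 0.0118, 0.0424 and 0.0342 within numbers and at -0.0904 to 0.0287 between numbers. The test was run without the pairing, with a replicate block and with the number as a random term, whose correlation was 0.0175. The block fits a level for each number, so few degrees of freedom remain. The fit was tested on simulated data, drawn as normal values with each gene's own mean and SD, the same in both groups before any change. There, log2 changes of 2, 4 and 8 were each given to 50 genes, of which 1, 8 and 22 were called. Of 50 genes given a change of -4, 4 were called, and of 11922 given none, 2 were. A missing call therefore does not show that a gene was unchanged. Few genes were changed in the simulation, and the real values hold many near 0, so these rates need not hold for the real fit. Alternatives varied the pseudocount, filter, scaling, library weights, block and libraries. Tables and figures came from pandas 2.3.3, matplotlib 3.10.9, numpy 2.4.6 and Python 3.11.15. No member sequences were used here.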

Additional observations from a re-analysis of the deposited data

Results flagged for a closer look

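In 6 of 28 groups of values, from 14 measures examined, a test for single outlying values flagged 1 library as far from the others. On normally distributed values such a test flags about 1 of 20 groups by chance. The flagged values are on the linear scale, where many genes are skewed. That rate need not hold here, so the 6 flags cannot be read against it. FBL was at 19352 in migratory 6, above 3320 to 8066 in the other 7. DDX51 was at 392 in migratory 6, where the other 7 were at 106 or less. DDX1 was at 1307 in premigratory 4, where the other 3 were under 3. NOL10 was at 1650.3 in migratory 2, above 668 in the next library. UTP25 was at 10886 in premigratory 2, against 1468 to 2449 in the other 3, and at 1867 in migratory 3, against 647 or less in the other 7. Left out in turn, these libraries changed no direction of those genes.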

How the results depend on the processing

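Across 23 alternative settings, 12 of which left out 1 library each, none of the 6 called members changed direction. DDX51 stayed past the threshold in 22, DDX1 and DDX6 in 21, pprc1 in 13, FBL in 11 and ncl in 9. Members called lower, 4 as reported, were 2 with a filter of 10 or more in at least 2 libraries (chosen after seeing the data), 1 with no filter, 2 with a pseudocount of 10, 2 with quantile normalisation, 1 with library weights and 1 to 5 when a library was left out. Members called higher, 2 as reported, were 0 with quantile normalisation and 2 to 4 when a library was left out. Over all genes, the calls higher were 851 with no filter, 821 with a pseudocount of 10, 223 with quantile normalisation and 771 to 1911 without a library, and those lower were 7, 12, 34 and 6 to 19, with 5 under library weights. With the replicate block that pairs libraries 1 to 4, calls were 0 higher and 0 lower for members and 0 higher and 0 lower for all genes. With the library number as a random term they were 2 higher and 4 lower for members and 1543 and 17 for all genes. Block adjusted p-values of the 6 calls were 0.158 to 0.225. The member median, 0.53, was -0.72 with quantile normalisation and -0.29 to 0.81 without a library. NOP58 passed the threshold without premigratory 1 (adjusted p = 0.0375) and npm1a with the same total per library (adjusted p = 0.0271). The share of the total and the members detected kept their direction in all 14 alternatives each. The cause of these changes was not tested, except that filters change the number of genes tested. Libraries 5 to 8 are migratory alone and enter the block without a partner. Values near 0 in libraries of 20 cells limit what can be said of lower genes.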
